A study of Mus musculus with 6 samples.

Results

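The genes described here mark or steer the passage of spermatogonia into differentiation, and were followed in whole testis RNA. They are Kit, Sohlh1, Sohlh2, Dmrt1, Dmrtb1, Uchl1 and Neurog3. The 7 were chosen by name for their known roles, and all were found among the 53700 gene identifiers of the count tables. The tissue came from mice at postnatal day 45, 3 labelled Msl3 wild type (WT) and 3 labelled conditional knockout (cKO) of a floxed Msl3 allele. The strain label, Msl3em1Forni/C57BL/6J, is the same for both groups, and the labels name no recombinase and no deleted exon. The protocol gives 3 mice per genotype and single reads of 75 bases, and the libraries are called biological replicates.

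Spermatogonia are the mitotic germ cells of the testis. A small stem cell pool renews itself, and its progeny become differentiating spermatogonia under retinoic acid, switch on the receptor KIT, divide a set number of times and enter meiosis. KIT is a tyrosine kinase receptor for stem cell factor, which is encoded by Kitl and supplied by Sertoli cells, the somatic cells that nurse the germ line. SOHLH1 and SOHLH2 are basic helix-loop-helix transcription factors needed for this differentiation and for Kit expression, while DMRT1 and DMRTB1 are DM domain transcription factors that govern the choice between mitosis and meiosis. NEUROG3, another basic helix-loop-helix factor, and UCHL1, a ubiquitin hydrolase, are known chiefly from earlier spermatogonia.

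The 6 libraries held 56991431 to 73766444 reads assigned to genes. Reads of Msl3 itself numbered 942, 1226 and 990 under the WT label and 1170, 829 and 923 under the cKO label, which overlapped. Its log2 fold change (cKO minus WT) of -0.12, SE 0.088, had an adjusted p of 0.551 by the quasi-likelihood test of edgeR. Since no lowering of its count was detected, WT and cKO stand for the labels of the libraries throughout. The defining transcripts of the tissue were present, among them Clu of Sertoli cells at 1091 CPM and Prm2 of elongating spermatids at 4771 CPM in the mean of the WT libraries. Levels in CPM are read counts divided by the scaled library size, so that libraries of unequal depth can be compared.

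No difference between the labelled genotypes was detected in any of the 7 genes. Of the 6 that had enough reads to be tested, 0 passed an edgeR adjusted p of 0.05, against 4 of all 21902 genes tested (0.0183%). Those 4 split into 2 higher and 2 lower (0.00913% each). Under relative log expression (RLE) scaling it was 4 and 2. At an unadjusted p under 0.05 there were 0 of the 6, against 13.9% of the genes tested. DESeq2 called 0 of the 6, against 1.4% of the genes it gave an adjusted p. The genotypes overlapped in each of the 7 genes, whereas they did not overlap in 18.9% of the genes tested. Log2 fold changes of the 6 genes ran from -0.05 to 0.13 with a median of 0.07, 5 of them above 0, and the median over all genes tested was 0.0031, with 50.7% above 0. The count above 0 ran from 3 of 6 without cKO 1 to 7 of 7 without cKO 2, where Neurog3 could be tested, and the median from 0.0021 to 0.14 over the same fits. With all libraries Neurog3, with 3 to 13 reads a library, did not pass the filter and is described by its reads. Whole tissue cannot tell fewer cells of a type from less RNA per cell.

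**Figure D1:**
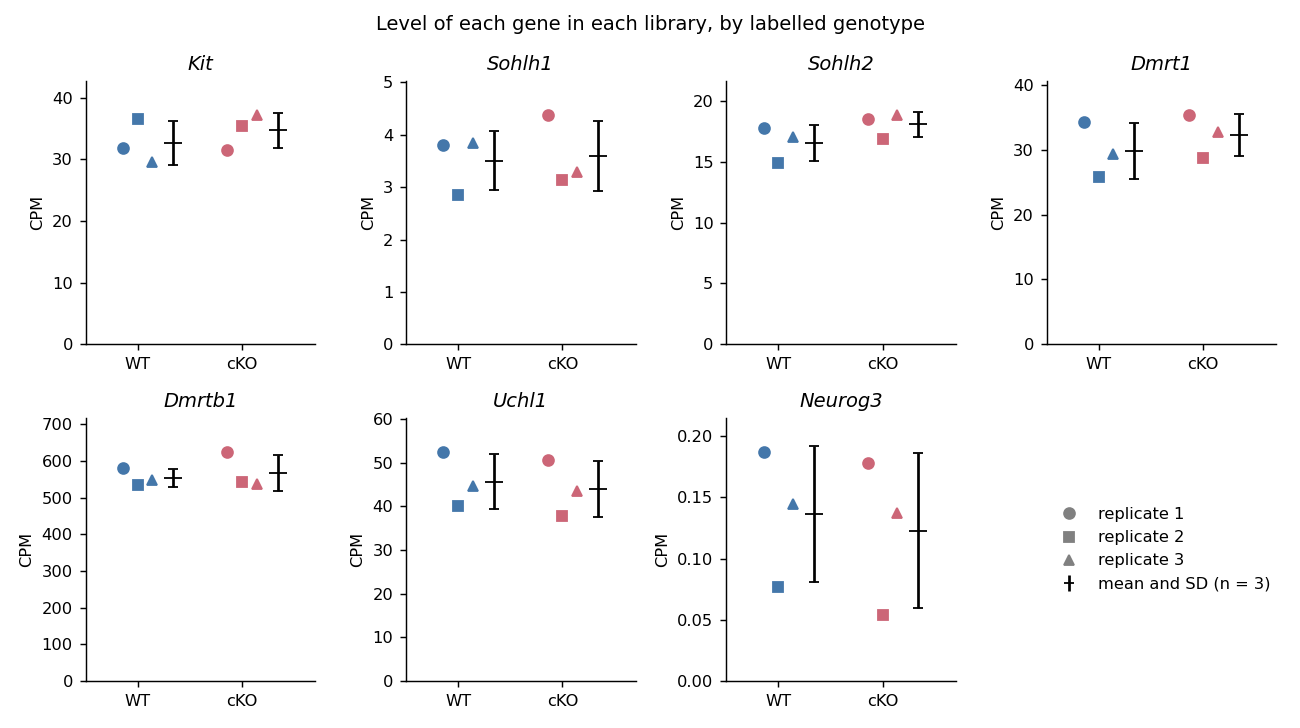
Level in CPM (vertical axes, each from 0) of the 7 genes in the 3 libraries labelled WT (blue) and the 3 labelled cKO (red). Marks give the replicate number, and bars the mean and SD (n = 3). The genotypes overlap in every panel, and replicate 1 lies above replicate 2 in both genotypes for each gene except Kit.

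The receptor Kit (ENSMUSG00000005672, chr5:75574916-75656722 in mm10, plus strand, protein coding) had 1876, 2376 and 1837 reads under WT and 2303, 1981 and 2170 under cKO. Its level was 31.9, 36.6 and 29.6 CPM in the former and 31.6, 35.4 and 37.2 CPM in the latter. The lowest library was WT 3 and the highest cKO 3, but WT 2 stood above cKO 1 and cKO 2, so the genotypes overlapped. This gave a log2 fold change of 0.09, SE 0.092 (edgeR adjusted p 0.718). The cKO level was thus 106% of WT (95% limits 92.3% and 122%). A shortened Kit transcript is known from haploid spermatids and Leydig cells also carry KIT, and a count per gene pools these sources with spermatogonial Kit.

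Values for those other sources stood as follows. Summed over 8 Leydig markers, the level ran from 883 to 1046 CPM in the WT libraries and from 806 to 1039 CPM in the cKO libraries, and 6 of the 8 had a log2 fold change below 0. With edgeR 0 of them was called, but Hsd17b3 was called by DESeq2 and by edgeR without WT 1 or cKO 1, and Hsd17b3 and Star without the filter on low counts. The 8 round spermatid markers summed to 1927 to 2022 CPM under WT and 1724 to 1861 CPM under cKO, without overlap, and 7 of the 8 had a log2 fold change below 0. Singly, 4 of the 8 did not overlap, and 1 of 8 elongating spermatid markers did not. Among all genes tested 18.9% did not overlap, and 50.7% had a log2 fold change above 0. With edgeR 0 of the round spermatid markers was called, but Spata25 was called by DESeq2 and by edgeR without cKO 1, and Spata25 and Izumo1 without the filter. The 8 elongating spermatid markers summed to 19330 to 21320 CPM under WT and 16830 to 20070 CPM under cKO, with overlap. Of these 8, 6 had a log2 fold change below 0 and 0 were called by edgeR. Tnp1 and Hmgb4 were called by DESeq2 and without the filter, and Tnp1 without WT 1. Over all genes, DESeq2 called 193 of 13761. The edgeR fits called 628 of 22255 without cKO 1, 116 of 22392 without WT 1 and 757 of 36605 without the filter. Among genes that define mast cells, which depend on KIT, Tpsb2 had 0 reads in all 6 libraries, Cma1 had 1 read in 1 library, and Mcpt4 and Ms4a2 had at most 2 in any library. Cpa3 had 10, 10 and 14 reads under WT and 8, 10 and 11 under cKO (log2 fold change -0.23, SE 0.368, edgeR adjusted p 0.826). The 6 mast cell markers summed to 22.0 to 24.5 CPM under WT and 25.1 to 27.5 CPM under cKO, nearly all of it Hdc, which makes histamine. The part of the Leydig, mast cell and spermatid sources in the Kit values was not tested.

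Kitl, which encodes the ligand, was at 34.1, 39.4 and 35.2 CPM in the WT libraries and at 33.0, 38.3 and 41.7 CPM in the cKO libraries. Its groups overlapped, and its log2 fold change was 0.06, SE 0.093 (edgeR adjusted p 0.834). For ligand and receptor alike, cKO 3 was the highest library and WT 2 the next. Per kilobase of exon, Kit stood at 0.622, 0.617 and 0.557 of Kitl in the WT libraries and at 0.634, 0.614 and 0.591 in the cKO libraries, an overlapping spread of 1.14-fold from the lowest library to the highest.

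The 16 genes of KIT ligand and signalling, Kitl among them, were all tested and 0 were called. Of these, 15 had a log2 fold change above 0, with a median of 0.09, against 50.7% and 0.0031 over all genes. The lowest p belonged to Plcg1, a phospholipase that KIT recruits, at 35.6 to 38.5 CPM under WT and 41.1 to 43.0 CPM under cKO (log2 fold change 0.18, SE 0.067, edgeR adjusted p 0.308). Gab2, an adaptor that links receptor kinases to the PI3K route, followed at 60.3 to 62.9 CPM and 66.0 to 73.3 CPM (log2 fold change 0.17, SE 0.067, edgeR adjusted p 0.310). In both genes the genotypes did not overlap, as in 4 of the 16 and in 18.9% of all genes. When each library was left out in turn, the number above 0 lay between 11 (without cKO 3) and 15, and the median between 0.07 and 0.15, highest without cKO 1. Corrected for GC content and transcript length, 10 of the 16 were above 0, with a median of 0.02.

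Sohlh1 (ENSMUSG00000059625, chr2:25842995-25847248, minus strand) was the sparser of the SOHLH pair. It had 224, 185 and 239 reads in the WT libraries and 319, 176 and 192 in the cKO libraries. In CPM that was 3.81, 2.85 and 3.85 against 4.37, 3.15 and 3.29. The library cKO 1 was highest and WT 2 lowest, and the other 4 interleaved. This gave a log2 fold change of 0.05, SE 0.16 (edgeR adjusted p 0.919). Its 95% limits, 81.2% to 132% of the WT level, were the widest of the 6 tested genes. The direction of Sohlh1 was not stable: without WT 2 the log2 fold change was -0.08, and without cKO 1 it was -0.12.

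Sohlh2 (ENSMUSG00000027794, chr3:55182028-55209957, plus strand) encodes the partner factor and had 1046, 966 and 1058 reads under WT and 1355, 947 and 1100 under cKO. Its level was 17.8, 14.9 and 17.0 CPM in the WT libraries and 18.6, 16.9 and 18.8 CPM in the cKO libraries. Here cKO 1 and cKO 3 lay above every WT library, and cKO 2 lay within their range. The log2 fold change of 0.13 (SE 0.088) was the largest of the 6 in size and stayed above 0 in each fit, but the edgeR adjusted p was 0.530. The limits were 95.8% and 125% of the WT level. Per kilobase of exon, Sohlh2 exceeded Sohlh1 in each library, by 2.41-fold to 2.85-fold under WT and 2.32-fold to 3.12-fold under cKO.

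The bases before the starts of this pair are shown because basic helix-loop-helix factors bind the E-box, CANNTG, and the genes differ in how many they hold there. Sequences are from RefSeq on GRCm38.p6, which is the mm10 build, read 5′ to 3′ on the strand of the gene. Each run ends before the GENCODE start of the gene, and capitals mark every CANNTG match. The Sohlh1 run is chr2:25847249-25847498 on the minus strand and the Sohlh2 run chr3:55181794-55182027 on the plus strand.
Sohlh1: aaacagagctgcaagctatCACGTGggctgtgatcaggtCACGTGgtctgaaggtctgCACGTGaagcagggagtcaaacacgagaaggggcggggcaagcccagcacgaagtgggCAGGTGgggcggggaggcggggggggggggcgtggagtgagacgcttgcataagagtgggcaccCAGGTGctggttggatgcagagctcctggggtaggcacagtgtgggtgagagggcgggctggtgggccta
Sohlh2: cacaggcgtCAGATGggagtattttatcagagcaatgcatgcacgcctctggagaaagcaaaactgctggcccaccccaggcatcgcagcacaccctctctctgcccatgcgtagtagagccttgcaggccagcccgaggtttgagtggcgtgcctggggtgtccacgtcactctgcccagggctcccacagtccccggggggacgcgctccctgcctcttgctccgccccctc

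The Sohlh1 window held 5 E-boxes in 250 bases, 3 of them CACGTG and 2 of them CAGGTG. The letters of CACGTG, and the pattern CANNTG, read the same on both strands, and CAGGTG was searched as CAGGTG and CACCTG. Among 32851 RefSeq windows of the 250 bases before a start, 20 (0.0609%) held 3 or more CACGTG, 6.02% held at least 1, and 66.2% held at least 1 CANNTG. The Sohlh2 and Neurog3 windows each held 1 CANNTG, the 2 Dmrtb1 windows held 3 and 2, and the windows of Kit and Uchl1 held 0. A match is a run of letters, and these libraries measured RNA and no binding.

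Partners and inhibitors of basic helix-loop-helix factors showed no call. Of 8 such partners and inhibitors, 7 had a log2 fold change above 0, with 0 called. Their median was 0.11, and it was 0.06 without WT 2 and 0.17 without WT 1. Tcf12, an E protein that pairs with tissue-specific factors, stood at 21.5 to 22.5 CPM under WT and 23.2 to 25.7 CPM under cKO without overlap (log2 fold change 0.17, SE 0.073, edgeR adjusted p 0.333). Figla, a factor known from oocytes, stood at 0.493 to 0.647 CPM and 0.531 to 0.929 CPM with overlap (edgeR adjusted p 0.558).

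Neurog3 (ENSMUSG00000044312, chr10:62133090-62134763, plus strand, 1 exon) was near the limit of detection. It had 11, 5 and 9 reads in the WT libraries and 13, 3 and 8 in the cKO libraries. Pooled, these were 25 of 184081307 and 24 of 189209874 assigned reads, or 0.136 and 0.127 CPM on unscaled totals, with exact Poisson 95% limits of 0.0879 to 0.201 and 0.0813 to 0.189 that cover counting error only. These limits overlapped, and no difference between the genotypes was detected at this depth. The gene shares 273 exon bases with Fam241b on the opposite strand, which had 180 to 278 reads a library, and the strand-specific counts keep them apart.

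Dmrt1 (ENSMUSG00000024837, chr19:25505618-25604329, plus strand) is made in both spermatogonia and Sertoli cells. It had 2015, 1675 and 1822 reads under WT and 2575, 1609 and 1909 under cKO. Its level was 34.3, 25.8 and 29.3 CPM in the WT libraries and 35.3, 28.8 and 32.7 CPM in the cKO libraries. The highest libraries were cKO 1 and WT 1 and the lowest were WT 2 and cKO 2, so both genotypes had libraries at either end. Its log2 fold change was 0.12, SE 0.107 (edgeR adjusted p 0.664), and the 95% limits were 92.2% and 127% of WT. Without WT 2 it was 0.02, and without WT 1 it was 0.23.

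Since Sertoli cells also make Dmrt1, the level of 11 Sertoli markers stands beside it. They summed to 1818, 1511 and 1642 CPM in the WT libraries and to 1985, 1522 and 1856 CPM in the cKO libraries, and 10 of the 11 had a log2 fold change above 0, with 0 called by edgeR. Most of that sum was Clu, at 1205, 981 and 1089 CPM under WT and 1329, 1007 and 1225 CPM under cKO. Single markers differed in order. Dmrt1 was lowest of the WT libraries in WT 2, as were Sox9, Wt1, Gata4, Amhr2, Cldn11, Dhh and Clu. Amh, Rhox5, Fshr and Inha were lowest in WT 3, and Rhox5 was highest in WT 2. None of the 11 was at 0 in any library. Per 1000 CPM of summed Sertoli markers, Dmrt1 stood at 18.9, 17.1 and 17.9 CPM under WT and 17.8, 18.9 and 17.6 CPM under cKO. The spread from the lowest library to the highest was 1.37-fold for Dmrt1 in CPM and 1.11-fold in that ratio. It was also narrower in the ratio for Sohlh1 (1.53-fold to 1.32-fold), Sohlh2 (1.26-fold to 1.19-fold) and Uchl1 (1.39-fold to 1.23-fold). It was wider for Kit (1.26-fold to 1.53-fold) and Dmrtb1 (1.17-fold to 1.23-fold).

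Dmrtb1 (ENSMUSG00000028610, chr4:107676290-107684230, minus strand) was by far the most abundant of the 7. It had 34189, 34586 and 33981 reads in the WT libraries and 45530, 30324 and 31306 in the cKO libraries. The level was 582, 533 and 547 CPM under WT and 624, 542 and 536 CPM under cKO. Only cKO 1 lay above the WT range. Its log2 fold change was 0.03, SE 0.0755 (edgeR adjusted p 0.876), and its 95% limits of 91.4% and 115% of WT were the closest of the 6. Leaving out cKO 1 turned it to -0.04. Per kilobase of exon Dmrtb1 averaged 269 CPM, against 3.78 for Kit and 188 for Ddx4, a germ cell helicase. A count per gene pools all cells that make Dmrtb1, and which cells these were was not tested.

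Of the 8 DM domain genes, which include Dmrt1 and Dmrtb1, 7 had a log2 fold change above 0, with 0 called. Their median was 0.11, and it was 0.04 without WT 2, 0.06 without cKO 1 and 0.07 with unstranded counts. Dmrt2 stood at 0.493, 0.632 and 0.579 CPM under WT and 0.822, 0.822 and 0.753 CPM under cKO, without overlap (log2 fold change 0.49, SE 0.196, edgeR adjusted p 0.315). Dmrta2 stood at 11.7 to 13.1 CPM and 12.4 to 16.7 CPM with overlap, and cKO 1 alone lay above the WT range (edgeR adjusted p 0.484).

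Uchl1 (ENSMUSG00000029223, chr5:66676091-66687234, plus strand) encodes a ubiquitin carboxy-terminal hydrolase abundant in spermatogonia and neurons. It had 3083, 2599 and 2771 reads under WT and 3693, 2116 and 2536 under cKO. Its level was 52.4, 40.1 and 44.6 CPM in the WT libraries and 50.6, 37.8 and 43.4 CPM in the cKO libraries, overlapping throughout. It was the only one of the 6 with a log2 fold change below 0, at -0.05, SE 0.115 (edgeR adjusted p 0.872), and its 95% limits were 81.0% and 115% of WT. Without WT 1 the log2 fold change was 0.06, and without cKO 2 it was 0.04. Of 5 neuronal markers Snap25 and Stmn2 were too low to test, and the 5 summed to 1.71 to 2.27 CPM under WT and 1.93 to 2.36 CPM under cKO. An antisense gene, Uchl1os, shares 295 exon bases with Uchl1 and had 1 to 12 reads a library.

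The hydrolase family, which includes Uchl1, gave 0 calls in 5 genes, 2 above 0 and 3 below, with a median of -0.05. With all libraries and without cKO 2, that median was the value of Uchl1 itself. The median was above 0 without WT 1 (0.05), without cKO 2 (0.04) and after correction for GC content and transcript length (0.0033). Uchl5, a proteasome-bound member, stood at 44.9 to 49.4 CPM under WT and 48.8 to 54.3 CPM under cKO (edgeR adjusted p 0.446). Uchl3 stood at 89.9 to 95.1 CPM and 85.2 to 90.7 CPM (edgeR adjusted p 0.720). Both overlapped between the genotypes.

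**Figure D2:**
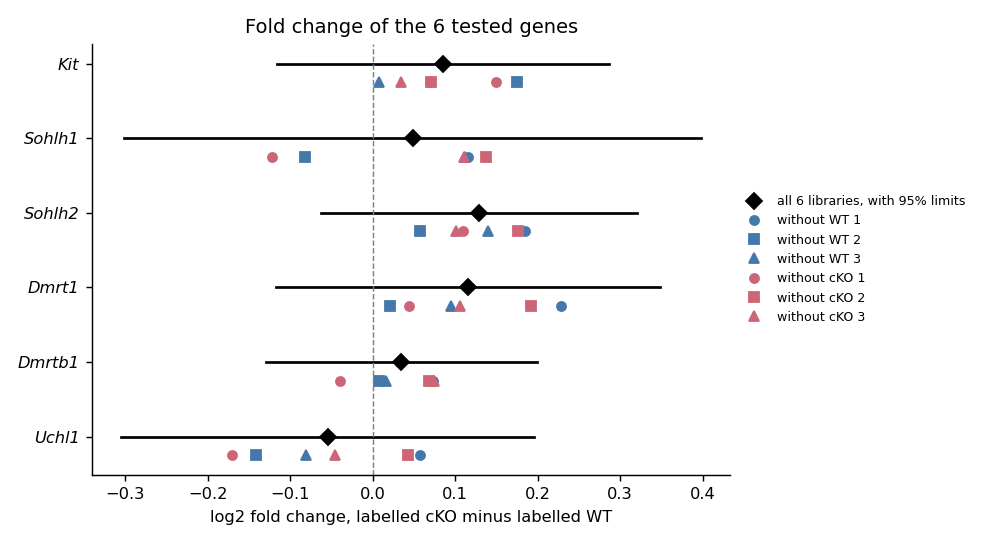
Log2 fold change, labelled cKO minus labelled WT (horizontal axis), of the 6 tested genes: diamonds with lines give all 6 libraries and the 95% limits, and coloured marks the fits that each leave out 1 library. The limits of each gene include 0, and the marks of Sohlh1, Dmrtb1 and Uchl1 fall on both sides of it.

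Compared per length, the 7 genes spanned a wide range of levels. Over the 6 libraries Dmrtb1 averaged 269 ± 17.2 (SD, n = 6) CPM per kilobase of exon, Uchl1 27.5 ± 3.53, Dmrt1 12.0 ± 1.41 and Sohlh2 7.33 ± 0.606. Kit followed at 3.78 ± 0.349, Sohlh1 at 2.76 ± 0.432 and Neurog3 at 0.0774 ± 0.0322. The ranges of neighbours in this order did not overlap, except for Kit and Sohlh1, where Sohlh1 reached 3.39 in cKO 1 and Kit was 3.32 in WT 3. The place of Kit depends on the length used: over the 8911 bases of all its annotated exons it lay below Sohlh2, and over its longest transcript of 5241 bases it averaged 6.43 and overlapped Sohlh2, whose level was 7.33 on both lengths.

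**Figure D3:**
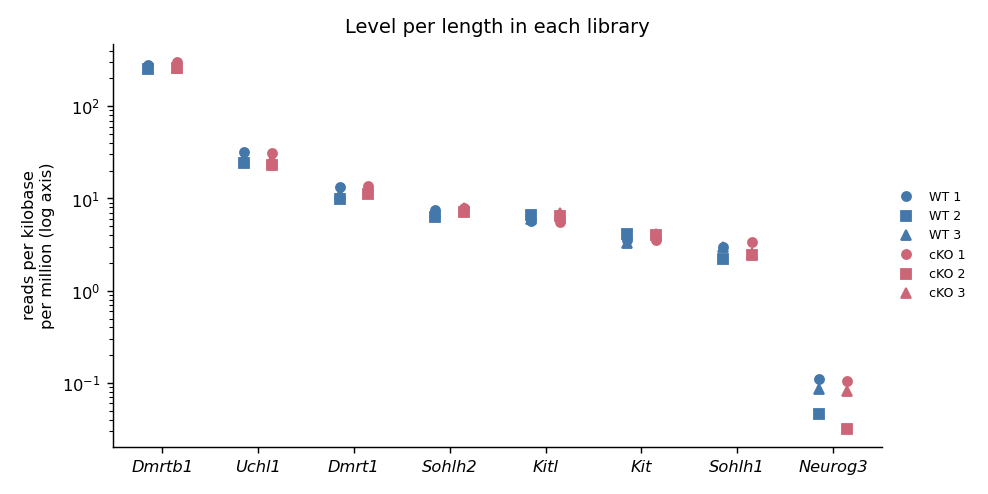
Level in CPM per kilobase of exon (vertical log axis) of the 7 genes and of the ligand gene Kitl in each library, coloured by labelled genotype. Dmrtb1 averages 269 and Neurog3 0.0774, and the genotypes coincide in each column.

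Among the libraries, most of the genes shared highs and lows that did not follow the genotype. Sohlh1, Sohlh2, Dmrt1 and Dmrtb1 were each lowest in WT 2, and Uchl1 and Neurog3 in cKO 2. Sohlh1, Dmrt1 and Dmrtb1 were highest in cKO 1, Uchl1 and Neurog3 in WT 1, and Kit and Sohlh2 in cKO 3. Kit was the exception, since WT 2 and cKO 2 lay above its mean by 0.12 and 0.08 on the log2 scale while WT 1 and cKO 1 lay below it, at -0.07 and -0.09. The SD of log2 CPM within a genotype was 0.25 for Sohlh1, 0.203 for Uchl1 and 0.179 for Dmrt1, each larger than the fold change between genotypes. Over the whole transcriptome WT 1 and cKO 1 also lay close together, at -25.2 and -24.1 on a component with 35.3% of the variance, and the other 4 libraries lay between -0.957 and 25.5. The next component, with 28.4% of the variance, separated the genotypes, at -18.0 to -9.13 under WT and 1.60 to 31.3 under cKO.

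**Figure D4:**
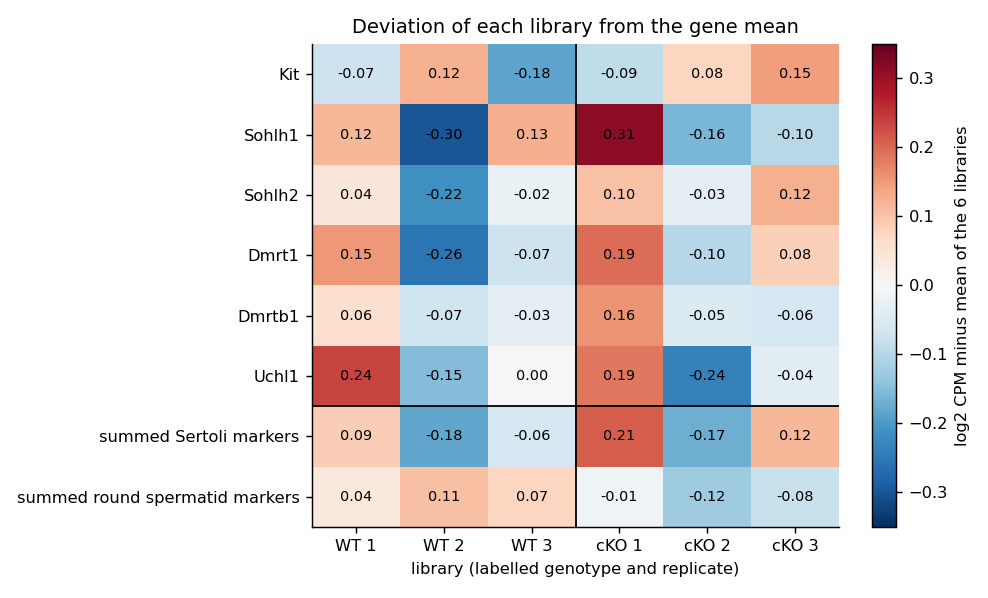
Log2 CPM minus its mean over the 6 libraries (colour and printed value) for the 6 tested genes and for the summed Sertoli and round spermatid markers, by library. WT 1 and cKO 1 are above the mean and WT 2 and cKO 2 below it for Sohlh1, Sohlh2, Dmrt1, Dmrtb1, Uchl1 and the Sertoli sum, and the reverse holds for Kit.

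Genes with the most similar profile over the 6 libraries were sought among the 16831 tested genes that averaged 1 CPM or more, as a description in which all points share library and depth. Kit was closest to mt-Co1, a mitochondrially encoded oxidase subunit (Pearson r 0.994), and to Aff1 (0.992). Levels of mt-Co1 were 733, 1201 and 588 CPM in the WT libraries and 677, 1124 and 1321 CPM in the cKO libraries. Mitochondrial genes held 0.240%, 0.339% and 0.177% of assigned reads under WT and 0.205%, 0.317% and 0.384% under cKO. That is the same order of libraries as for Kit. Reads in no annotated feature made up 4.98%, 6.65% and 6.08% under WT and 5.05%, 6.94% and 5.85% under cKO. Whether these library measures bear on the profile of Kit or of the other genes was not tested. Sohlh1 was closest to Ttc7 and Taf7l (0.997 and 0.996), Sohlh2 to Add1 and Cdr2l (0.999 and 0.996), and Dmrt1 to Gart and Chpf (0.997 and 0.996). Dmrtb1 was closest to Vdac2 and Ppp1r15a (0.997 and 0.992) and Uchl1 to Babam1 and Enho (both 0.996). No member was among the 2 closest genes of another.

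Genes of the stages before and after gave 0 calls as well. Of 12 other genes listed for differentiating spermatogonia, 11 had a log2 fold change above 0, with a median of 0.13. Not all of the 12 are confined to that stage, and Stra8 is also counted among the meiotic entry genes below. Sox3, a transcription factor of spermatogonia, stood at 2.39 to 3.64 CPM under WT and 3.54 to 4.26 CPM under cKO (log2 fold change 0.33, SE 0.155, edgeR adjusted p 0.368). Ddx4, a germ cell RNA helicase, stood at 531 to 558 CPM and 549 to 633 CPM (edgeR adjusted p 0.445). Stra8, which retinoic acid induces before meiosis, was the 1 below 0, at 14.3, 10.5 and 12.8 CPM under WT and 13.4, 10.8 and 10.8 CPM under cKO (edgeR adjusted p 0.769), and it was named after its value was seen.

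Of 13 stem cell genes, 11 could be tested and 9 of these had a log2 fold change above 0, with a median of 0.12. Foxo1, a transcription factor of stem cell maintenance, stood at 10.9 to 12.4 CPM under WT and 13.0 to 14.8 CPM under cKO without overlap (log2 fold change 0.25, SE 0.0868, edgeR adjusted p 0.3). Zbtb16, which encodes the zinc finger factor PLZF, stood at 4.15 to 4.83 CPM and 4.81 to 5.56 CPM (edgeR adjusted p 0.362). Nanos2 and Pax7 were too low to test. Of 12 meiotic entry genes, 9 had a log2 fold change above 0, with a median of 0.12. Ythdc2, an RNA helicase of meiotic entry, stood at 44.7 to 46.3 CPM and 46.1 to 52.9 CPM (edgeR adjusted p 0.397), and Sycp1, of the synaptonemal complex, at 241 to 255 CPM and 250 to 288 CPM (edgeR adjusted p 0.401). Without WT 2 the medians of these 3 lists were 0.04, 0.06 and 0.07, and without WT 1 they were 0.18, 0.22 and 0.13, in the order given. The stem cell median was also 0.05 after correction for GC content and transcript length. The difference between the lists was not tested.

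Ratios within a library do not depend on its scaling, and 11 of them were compared after the values had been seen: 5 between genes per length and 6 of a gene to the summed Sertoli markers. Uchl1 was 2.43, 2.47 and 2.42 times Dmrt1 in the WT libraries and 2.28, 2.09 and 2.11 times Dmrt1 in the cKO libraries, without overlap. Per 1000 CPM of Sertoli markers, Uchl1 stood at 28.9, 26.5 and 27.2 CPM under WT and 25.5, 24.8 and 23.4 CPM under cKO, also without overlap. The 2 ratios are not separate observations, since they share Uchl1 and Dmrt1 spread only 1.11-fold relative to the Sertoli sum. Both ratios had an exact two-sided permutation p of 0.1, the smallest that 3 libraries against 3 can give, and a Benjamini-Hochberg value of 0.55 over the 11. The other 9 overlapped, with an exact permutation p of at least 0.5.

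**Figure D5:**
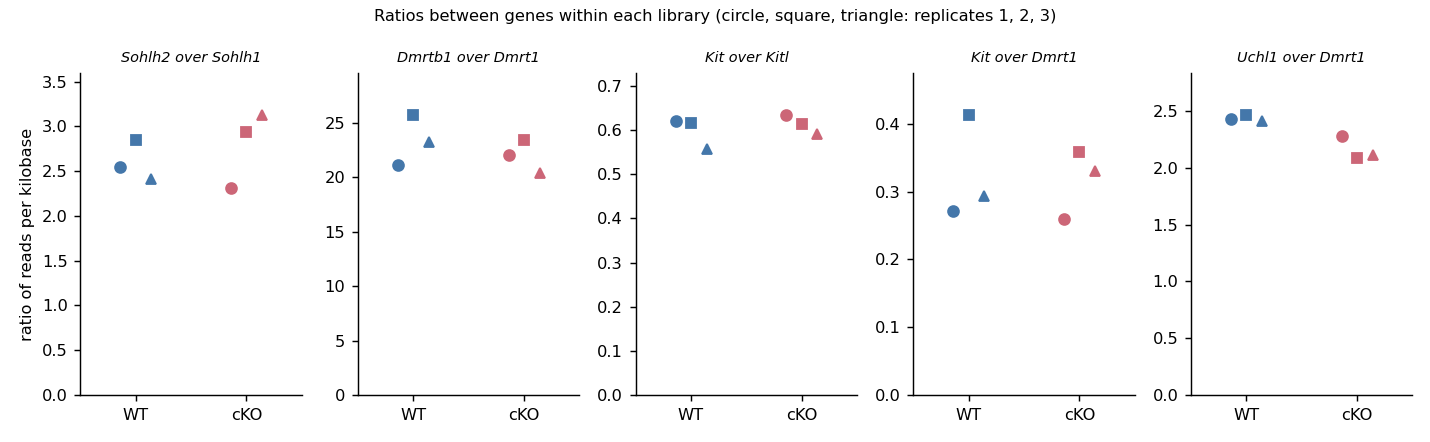
Ratios of reads per kilobase between 5 pairs of genes (vertical axes, each from 0) in the WT libraries (blue) and cKO (red). Uchl1 over Dmrt1 is at 2.42 to 2.47 under WT and 2.09 to 2.28 under cKO, and the genotypes overlap in the other 4 ratios.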

How the data were processed

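The authors deposited 1 table of read counts per library in the layout of STAR's gene counts, with no normalisation. STAR, HTSeq, DESeq2 and the build mm10 are named, without versions, in the submitters' processing notes; the annotation release and library kit are not given in the sources used here. Counts on the strand opposite to the gene (96.0% to 96.2% of stranded reads) were used. Lines for reads outside single genes (14.8% to 16.7%) were left out. GENCODE M21 (GRCm38, the build of mm10) gave symbols, coordinates and exon lengths for 52147 of 53700 identifiers. Labels call the libraries biological replicates.

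CPM used library sizes scaled by trimmed mean of M values (TMM). The labelled cKO libraries were compared with WT in edgeR 4.0.16 (R 4.3.3): filterByExpr with a minimum count of 10, quasi-likelihood F test, no covariates, Benjamini-Hochberg adjustment over 21902 genes, threshold 0.05. SE were derived from F. DESeq2 1.42.0 was an alternative. In simulated counts the procedure recovered 0% of log2 changes of 0.25 (21681 genes tested), 51% of 0.5 (21665) and 84.5% of 1 (21660). With no change simulated it called 3 of 21675 genes, all false. False calls numbered 3 at a log2 change of 0.25, 17 of 119 calls at 0.5 and 9 of 178 at 1. The simulated counts were drawn independently for each gene and library, so they lack any pattern shared among genes within a library.

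The members, lists and tests were chosen with earlier results of these data known. Named are the 7 genes, Kitl, Msl3, the 2 genes of lowest p in each of the 7 fixed lists and any called, and the 2 nearest profiles (log2 CPM plus 0.03). Clu, Prm2, mast cell, neuronal and remaining genes were named after their values were seen. Meiosin was matched through a RefSeq synonym, and 145 of 145 list symbols were matched. The transcripts of Kit, Sohlh1, Sohlh2, Dmrt1 and Dmrtb1 shared 0 runs of 75 bases with other genes. Those of Uchl1 shared 158 (10.2%) and those of Neurog3 204 (11.7%), counting matches on either strand. Both Uchl1 and Neurog3 share exon bases with a gene on the opposite strand. Reads on the strand of the gene made up 4.03% of the stranded reads of Sohlh1 and at most 2.0% of those of each other member.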

Additional observations from a re-analysis of the deposited data

How the results depend on the processing

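With 15 other fits and a threshold of 0.1, 0 of the 7 genes was called in any. The log2 fold changes of the 6 tested genes kept their direction in 84 of 90 values. Those of Sohlh2 and Dmrt1 kept it throughout. Correction for GC content and transcript length turned Kit to -0.0049. Over the fits without 1 library, Kit ran from 0.0078 to 0.17, Sohlh1 from -0.12 to 0.14, Sohlh2 from 0.06 to 0.18, Dmrt1 from 0.02 to 0.23, Dmrtb1 from -0.0398 to 0.0746 and Uchl1 from -0.17 to 0.0571. Neurog3 could be fitted without the filter (-0.10, SE 0.491), with DESeq2 (-0.12) and without WT 2, WT 3, cKO 2 or cKO 3 (-0.38 to 0.24).

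The number of genes called, 4 in all, was 757 without the filter, 2 with unstranded counts, 193 with DESeq2 and 1 to 628 without 1 library (628 without cKO 1, 116 without WT 1, 7 without cKO 3, 2 without WT 2 and 1 without WT 3 or cKO 2). The cause was not tested. Deviations from the genotype mean correlated at 0.35, 0.26 and -0.05 between same-numbered libraries. Between libraries of unlike number the correlations ran from -0.34 (WT 2 with cKO 1) to 0.11 (WT 3 with cKO 2). Deviations within a genotype sum to 0 for each gene, so these correlations are not independent. A positive value for 1 pair pulls others below 0. The labels name no pairing, and whether the shared numbers carry one was not tested. A replicate block raised the number of genes called to 49, with 0 of the 7 genes among them. With the block the SE was 0.0669 for Dmrt1 and 0.0629 for Uchl1, against 0.107 and 0.115 without it.

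The difference of the Uchl1 to Dmrt1 ratio (-0.28) lay between -0.34 and -0.24 without each library and at -0.27 with unstranded counts. These settings were chosen after seeing the data. The genotypes did not overlap in this ratio, so leaving out any library could not change the sign of the difference. The range without each library therefore describes its size and does not test its direction. Depth limits Neurog3 most, and the 95% limits leave room for changes of up to 0.40 on the log2 scale in Sohlh1.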
